A study of Zea mays with 16 samples.

Results

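Zm00001d047235 and Zm00001d005973 are maize genes that the deposited table describes with the single word Carboxypeptidase, and they lean toward opposite cell types of the stomatal complex. Both were picked by identifier, as 2 of the 44 genes with that description among 38179 listed genes, because the guard and subsidiary cell values of the same libraries had shown the one as higher in guard cells and the other as higher in subsidiary cells. The values between the cell types are therefore given as a description, with no test. The day to night contrasts did not choose the genes and were tested, although they use the same libraries as the contrasts that did.

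All 16 libraries come from maize inbred line B104, from epidermis peeled off leaf number 3 of seedlings 2 weeks old. The plants grew in 16 h of light at 25 °C and 8 h of dark at 22 °C. Guard cells and subsidiary cells were each collected by day, 2 h after lights on, and by night, 2 h after lights off, which gives 4 groups of 4 libraries from 4 independent collections. Day and night samples thus differ in light, in temperature and in hour at once. Cells were cut out with a laser from freeze-dried strips, about 1500 per tube with 2 tubes pooled for each library, so each value is an average over many cells of a pooled cut. In such bulk samples fewer cells of a type and less RNA per cell cannot be told apart.

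Carboxypeptidases remove amino acids from the carboxyl end of proteins and peptides. In plants most of them are serine carboxypeptidases, which work in vacuoles or in the cell wall space in protein turnover and peptide processing, and some relatives of this family act instead as acyltransferases that build specialised metabolites. Guard cells open and close the stomatal pore, and in grasses a pair of subsidiary cells flanks them and exchanges water and ions with them. The 1-word description does not say which kind of carboxypeptidase either gene encodes, and their positions and sequences were not used here.

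The libraries held 16.6 to 28.9 M reads on genes (median 22.2 M), recovered from the deposited normalised counts. Guard cell night replicate 4 and subsidiary cell day replicate 1 stood apart, with mean Spearman correlations to the other libraries of 0.648 and 0.676, against 0.713 to 0.764 elsewhere. Some results that rest on either are also given without it, but not all. No description in the table held a word from the list of guard cell marker names, so the cut cell type could not be checked that way. Genes named for chlorophyll binding and photosystems, which are abundant in green mesophyll, took 0.313 to 0.614% of reads in guard cells by day and 0.0829 to 0.321% in subsidiary cells by day. By night they took 0.0276 to 0.159% in guard cells and 0.0803 to 0.1% in subsidiary cells. Of these 55 genes 50 to 55 were detected in each library. The part of mesophyll RNA in the differences below was not tested.

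Zm00001d047235 was abundant in guard cells at both times and low in subsidiary cells. By day its normalised counts (reads divided by the authors' size factor of the library) were 1402, 789, 1259 and 1819 in guard cells, against 118, 62.1, 51.7 and 155 in subsidiary cells. By night they were 909, 1253, 1203 and 315 in guard cells, against 87.9, 58.9, 72.4 and 209 in subsidiary cells. The lowest guard cell value, in the night library that stood apart, was still above the highest subsidiary cell value of either time. The cell types thus did not overlap by day or by night, as was so for 4.27% of tested genes by day and 2.53% by night with guard cells higher.

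The mean of Zm00001d047235 by day was 1317 ± 425 for guard cells and 96.6 ± 48.4 for subsidiary cells (SD, n = 4 each), a ratio of 13.6. By night the mean was 920 ± 431 for guard cells and 107 ± 69.1 for subsidiary cells, with a ratio of 8.59. On the scale of log2(normalised count + 1) the difference, guard minus subsidiary cells, was 3.83 ± 0.53 (SE) by day and 3.09 ± 0.53 by night. Without guard cell night replicate 4 the guard cell night mean was 1122 ± 185 (SD, n = 3). The gene was measured on 367 to 2081 reads in guard cells but on 48 to 306 in subsidiary cells. In subsidiary cells the counting error of the reads alone comes to 5.72 to 14.4% of the value. This is a lower limit, since the RNA input was 10 pg and the libraries have no molecular identifiers. By count, with no correction for gene length, Zm00001d047235 stood above 72.4 to 96.8% of all listed genes in the guard cell libraries and above 27.4 to 59.6% in the subsidiary cell libraries.

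Zm00001d005973 had the opposite lean, and was well expressed in both cell types. By day its normalised counts were 825, 829, 517 and 599 in guard cells, against 2859, 2135, 1918 and 2136 in subsidiary cells. By night they were 477, 424, 407 and 417 in guard cells, against 824, 1159, 678 and 1645 in subsidiary cells. At each time every subsidiary cell library was above every guard cell library, a pattern found for 3.53% of tested genes by day and 3.27% by night. The highest subsidiary cell value was in day replicate 1, the other library that stood apart.

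The mean of Zm00001d005973 by day was 692 ± 159 for guard cells and 2262 ± 411 for subsidiary cells (SD, n = 4 each), a ratio of 0.306. By night the mean was 431 ± 31.4 for guard cells and 1076 ± 429 for subsidiary cells, with a ratio of 0.401. The log2 difference, guard minus subsidiary cells, was -1.72 ± 0.32 (SE) by day and -1.24 ± 0.32 by night. Without subsidiary cell day replicate 1 the subsidiary cell day mean was 2063 ± 126 (SD, n = 3). Reads on the gene ran from 314 to 833 in guard cells and from 778 to 2524 in subsidiary cells. Its night level in guard cells varied least of all groups, with a coefficient of variation of 7.29%, against 18.2 to 39.9% in the other groups.

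**Figure D1:**
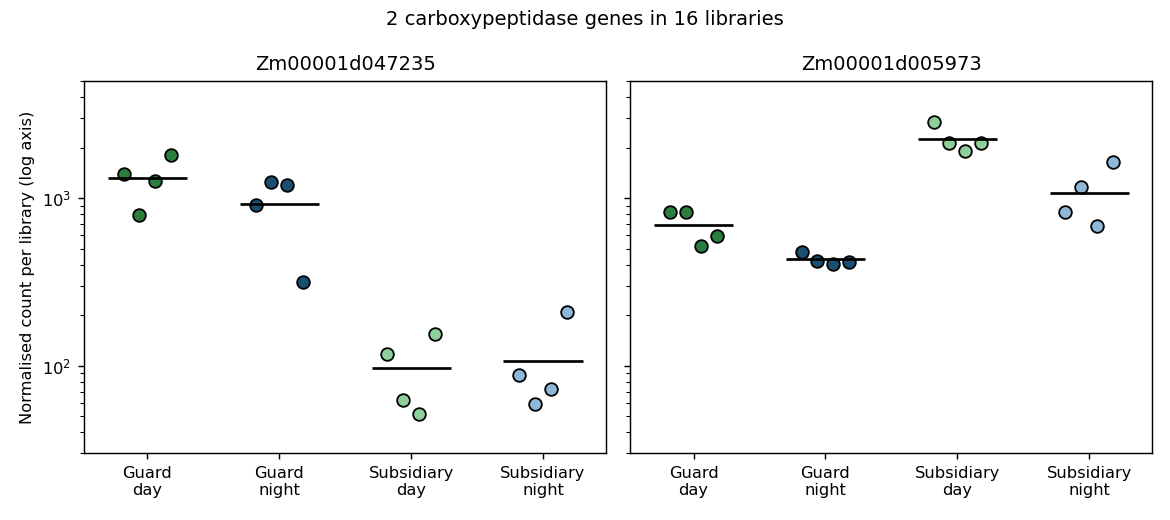
Normalised counts (log axis) of Zm00001d047235 (left) and Zm00001d005973 (right) in guard and subsidiary cells by day and by night; points are the 4 libraries of a group and lines are arithmetic means. Zm00001d047235 averages 1317 for guard cells and 96.6 for subsidiary cells by day, and Zm00001d005973 averages 692 for guard cells and 2262 for subsidiary cells by day.

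Ordered by group mean, Zm00001d047235 was highest in guard cells by day and next in guard cells by night, with subsidiary cells lower by night and lowest by day. Its day and night libraries overlapped within each cell type, so only the step between the cell types lay outside the spread. Zm00001d005973 was highest in subsidiary cells by day and next in the same cells by night, with guard cells lower by day and lowest by night. The middle pair of that order overlapped, with 678 to 1645 in subsidiary cells by night and 517 to 829 in guard cells by day.

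The ratio of reads of Zm00001d047235 to those of Zm00001d005973 within a library does not depend on the library's size factor. Its log2 value was 0.77, -0.07, 1.28 and 1.60 in guard cells by day, against -4.60, -5.10, -5.21 and -3.79 in subsidiary cells by day. By night it was 0.93, 1.56, 1.56 and -0.41 in guard cells, against -3.23, -4.30, -3.23 and -2.97 in subsidiary cells. Every guard cell library lay above every subsidiary cell library, and the lowest guard cell ratio was in night replicate 4. The pair was chosen for opposite cell type values in these same libraries, so this separation follows from the choice and is only a description. The mean was 0.90 ± 0.73 by day and 0.91 ± 0.93 by night in guard cells, and -4.68 ± 0.65 by day and -3.43 ± 0.59 by night in subsidiary cells (SD, n = 4 each). Day and night overlapped in both cell types.

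**Figure D2:**
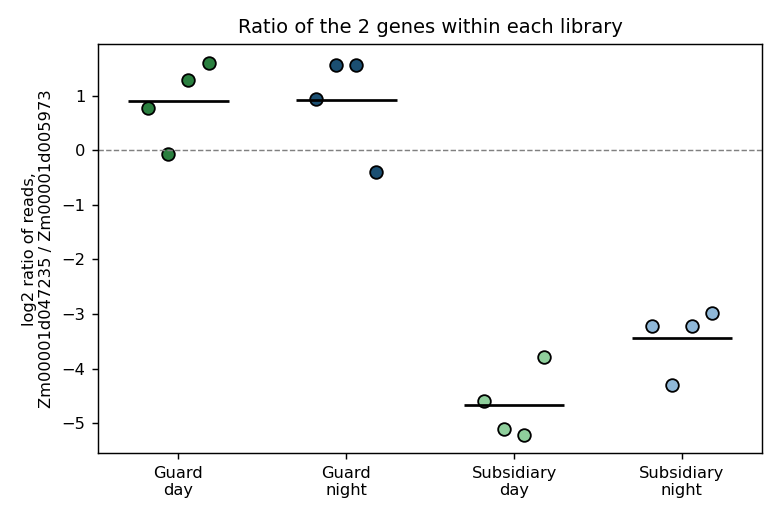
The log2 ratio of reads of Zm00001d047235 to reads of Zm00001d005973 within each of the 16 libraries, by group; lines are means and the dashed line marks equal reads. Guard cell libraries lie between -0.41 and 1.60 and subsidiary cell libraries between -5.21 and -2.97.

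The reads on all 44 carboxypeptidase genes together made up 0.0835 to 0.124% of reads in guard cells by day and 0.135 to 0.168% in subsidiary cells by day. By night they made up 0.08 to 0.163% in guard cells and 0.0927 to 0.119% in subsidiary cells. The 0.163% was in guard cell night replicate 4, a library that stood apart, against 0.08 to 0.114% in night replicates 1 to 3. In that library 1 gene of the list, Zm00001d002966, held 18348 reads. Zm00001d047235 took 5.38 ± 1.51% of these carboxypeptidase reads in guard cells by day and 0.284 ± 0.16% in subsidiary cells by day (SD, n = 4 each). By night it took 4.49 ± 2.36% in guard cells and 0.515 ± 0.316% in subsidiary cells. Its guard cell night share was 1.15% in night replicate 4 and 4.66 to 6.60% in night replicates 1 to 3. Zm00001d005973 took 2.89 ± 0.807% by day and 2.02 ± 0.404% by night in guard cells, and 6.66 ± 2.67% by day and 5.14 ± 1.83% by night in subsidiary cells.

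Neither gene passed the test between day and night in either cell type. The test was limma-trend on log2(normalised count + 1) with Benjamini-Hochberg adjustment over 37759 genes, with calls made below an adjusted p of 0.05. In guard cells 0.866% of tested genes were called between day and night, and in subsidiary cells 1.22%. For Zm00001d047235 day minus night was 0.64 ± 0.53 (SE) in guard cells (limma adjusted p = 0.743) and -0.10 ± 0.53 in subsidiary cells (limma adjusted p = 0.975). Without guard cell night replicate 4 the guard cell value was 0.18. In subsidiary cells the sign turned without day replicate 2 (0.06), day replicate 3 (0.15) or night replicate 4 (0.28).

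In both cell types every day library of Zm00001d005973 lay above every night library, but the difference did not pass the test. In guard cells the day libraries lay at 517 to 829 and the night libraries at 407 to 477, and day minus night was 0.65 ± 0.32 (SE, limma adjusted p = 0.502). In subsidiary cells the day libraries lay at 1918 to 2859 and the night libraries at 678 to 1645, and day minus night was 1.14 ± 0.32 (SE, limma adjusted p = 0.103). Day and night libraries failed to overlap, with day higher, for 3.49% of tested genes within guard cells and 4.25% within subsidiary cells. The subsidiary cell difference passed with DESeq2 on the recovered reads (1.07, adjusted p = 0.0336) and with library quality weights in limma (1.15, adjusted p = 0.0355), but in no fit that left out 1 library (limma adjusted p 0.0596 to 0.289). In the authors' deposited table the same comparison, given as night over day, has a log2 fold change of -0.91 with an adjusted p of 0.0324, and the guard cell comparison has -0.52 with an adjusted p of 0.312. For Zm00001d047235 the authors' deposited table gives night over day as 0.06 in subsidiary cells (adjusted p = 0.952) and -0.23 in guard cells (adjusted p = 0.765).

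The day minus night change in guard cells minus that in subsidiary cells was 0.74 ± 0.74 (SE) for Zm00001d047235 and -0.48 ± 0.45 for Zm00001d005973. These values hold the differences between the cell types that chose the genes, and were not tested.

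The other 42 genes described as Carboxypeptidase were set beside the pair. All 44 passed the filter on low values. By day 4 of the 44 were called between the cell types, 2 higher and 2 lower in guard cells, where 1.34% of tested genes were called, 0.943% higher and 0.395% lower. The pair belongs to these 4 by choice, so nothing is read from the count. Of the other 42 genes 1 was called higher and 1 lower in guard cells. The list median of guard minus subsidiary cells by day was -0.19, and 0.00 over all tested genes. Ranked by this difference from the highest, Zm00001d047235 was number 2 and Zm00001d005973 number 41 of the 44.

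Zm00001d015872 ranked first by this difference. By day it had 2626, 1746, 3353 and 3137 normalised counts in guard cells, against 15.9, 96.8, 111 and 188 in subsidiary cells. The log2 difference was 5.10 ± 0.90 (SE, limma adjusted p = 0.00708), and the call held without any 1 library (limma adjusted p 0.000218 to 0.0292). By night it had 1864, 3409, 1532 and 72.1 in guard cells, against 27.4 to 80.9 in subsidiary cells. The lone low guard cell value, inside the subsidiary cell range, was in night replicate 4, the library with the lowest guard cell value of Zm00001d047235 as well. The night difference of 4.37 ± 0.90 did not pass (limma adjusted p = 0.0862), but it did without guard cell night replicate 4 (5.58, limma adjusted p = 0.00121), without subsidiary cell day replicate 1 (limma adjusted p = 0.0469) and without both (limma adjusted p = 1.85e-05).

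Zm00001d049055 was the other called gene that was lower in guard cells by day, with 922 ± 241 normalised counts in guard cells and 2621 ± 912 in subsidiary cells (SD, n = 4 each). Its difference was -1.47 ± 0.34 (SE, limma adjusted p = 0.0349). The call ended without any 1 of guard cell day replicates 1 to 4 or subsidiary cell day replicates 2 to 4 (limma adjusted p 0.0542 to 0.121). It also ended in edgeR (adjusted p = 0.0509), with a replicate block (limma adjusted p = 0.0648) and when the 2 day groups were fitted alone (limma adjusted p = 0.0808). By night the gene had 581 ± 130 in guard cells against 550 ± 143 in subsidiary cells, a difference of 0.09 ± 0.34 (limma adjusted p = 0.974). Its night ranges overlapped, 498 to 772 in guard cells and 453 to 763 in subsidiary cells. The night libraries of Zm00001d005973 did not overlap between the cell types, but that gene was chosen by its cell type values. Nothing is therefore read from this contrast between the genes. Of the other 42 genes 2, Zm00001d025195 and Zm00001d040741, also did not overlap by night with guard cells lower, as was so for 3.27% of tested genes. Whether the night difference differs between Zm00001d005973 and Zm00001d049055 was not tested.

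Several genes on the list had large day differences that did not pass. Zm00001d008642 (-2.13 ± 0.74, SE) and Zm00001d022374 (-1.82 ± 0.60) lay lowest, and Zm00001d025195 (-1.72) had the same value as Zm00001d005973 to 2 decimals, with limma adjusted p of 0.112 to 0.193. Zm00001d025195 passed without guard cell night replicate 4 (limma adjusted p = 0.0481). On the guard cell side the next gene was Zm00001d028019, at 1.44 ± 0.74 (limma adjusted p = 0.454). Its guard cell libraries held 104 to 339 normalised counts by day and its subsidiary cell libraries 15.9 to 279, so these groups overlapped. By night 1 of the 44 was called, higher in guard cells, where 0.0291% of tested genes were called and 0.0185% as higher. It is one of the pair, so nothing is read from it, and 0 of the other 42 were called (limma, with 6 at an unadjusted p under 0.05, while edgeR called 0 and DESeq2 called 2). Over all 37759 tested genes 3237 had an unadjusted limma p under 0.05 by night. The night ranks were number 2 for Zm00001d047235 and number 42 for Zm00001d005973, with Zm00001d025195 lowest (-2.14 ± 0.51, limma adjusted p = 0.128).

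**Figure D3:**
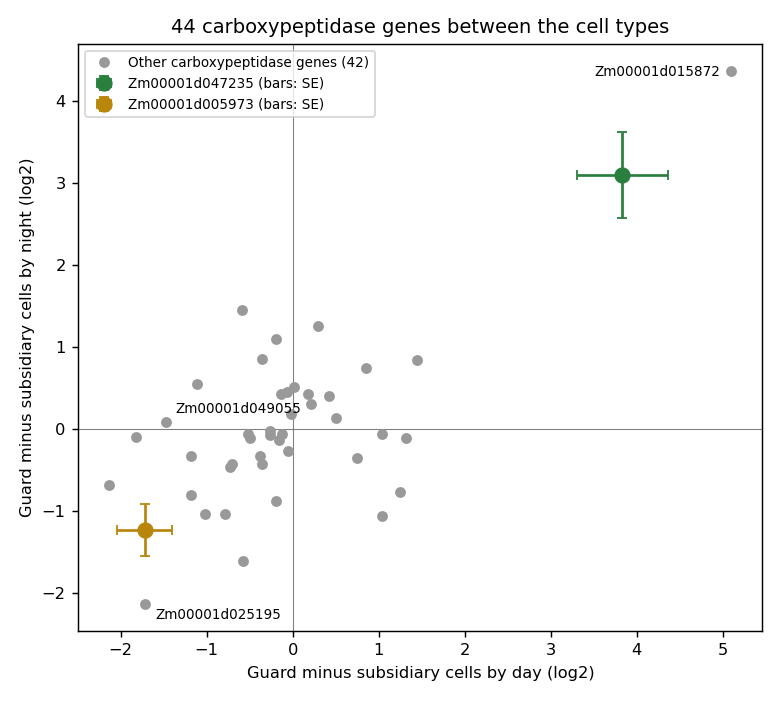
Guard minus subsidiary cell difference in mean log2(normalised count + 1) by day (horizontal) and by night (vertical) for the 44 carboxypeptidase genes; bars are standard errors, drawn for the pair only. Zm00001d047235 lies at 3.83 and 3.09, Zm00001d005973 at -1.72 and -1.24, and Zm00001d015872 at 5.10 and 4.37.

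Between day and night 0 of the 44 genes were called in guard cells (limma, with 3 at an unadjusted p under 0.05). Over all 37759 tested genes 3802 had an unadjusted limma p under 0.05 in this comparison. DESeq2 called 2 in guard cells, Zm00001d045085 (DESeq2 adjusted p = 0.0268) and Zm00001d025195 (DESeq2 adjusted p = 0.0309), both higher by day, and edgeR called 0. Zm00001d025195, the most abundant of the list by count, had 3220 ± 1679 normalised counts by day and 938 ± 566 by night in guard cells, and 10806 ± 5735 by day and 3772 ± 1359 by night in subsidiary cells (SD, n = 4 each). Its day minus night difference was 1.88 ± 0.51 (SE) in guard cells (limma adjusted p = 0.106) and 1.46 ± 0.51 in subsidiary cells (limma adjusted p = 0.226). Zm00001d045085 had 1009 ± 170 by day and 417 ± 49.7 by night in guard cells, a difference of 1.27 (limma adjusted p = 0.131), and 0.17 in subsidiary cells.

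In subsidiary cells 2 of the 44 genes rose by day and 0 fell (limma, with 7 of either sign at an unadjusted p under 0.05), where 0.673% of tested genes rose and 0.548% fell. Over all 37759 tested genes 4242 had an unadjusted limma p under 0.05 in this comparison. Of the 44, edgeR called 1 and DESeq2 called 4, of which 3 were higher and 1 lower by day. Zm00001d049055 had 1454, 3607, 2443 and 2981 normalised counts by day, against 763, 481, 453 and 504 by night. The difference was 2.21 ± 0.34 (SE, limma adjusted p = 0.00166), and the call held without any 1 library (limma adjusted p 0.000672 to 0.0108). In guard cells its difference was 0.65 ± 0.34 (limma adjusted p = 0.553), and the guard minus subsidiary difference of these changes, -1.56 ± 0.48, did not pass (limma adjusted p = 0.541). Zm00001d022374 had 1195 ± 317 by day and 213 ± 115 by night (SD, n = 4 each), a difference of 2.59 ± 0.60 (SE, limma adjusted p = 0.0371). That call ended without any 1 of subsidiary cell day replicates 1 to 4 or night replicates 1 to 3 (limma adjusted p 0.0673 to 0.122), and in edgeR (adjusted p = 0.0756) and with a replicate block (limma adjusted p = 0.0595). The list median of day minus night was 0.10 in guard cells and 0.19 in subsidiary cells, against -0.01 and -0.03 over all tested genes. By this difference in subsidiary cells Zm00001d005973 was number 6 and Zm00001d047235 number 29 of the 44.

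**Figure D4:**
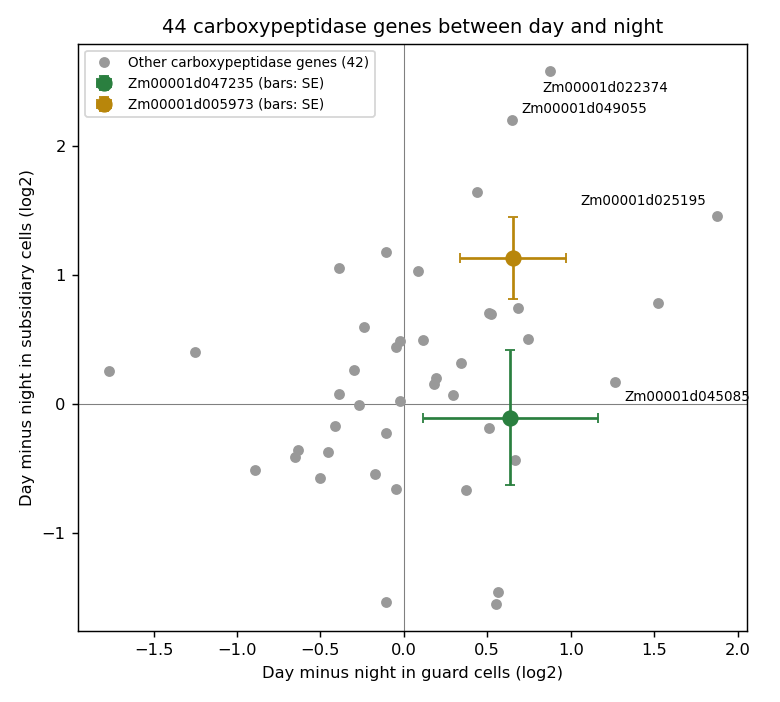
Day minus night difference in mean log2(normalised count + 1) in guard cells (horizontal) and subsidiary cells (vertical) for the 44 carboxypeptidase genes; bars are standard errors, drawn for the pair only. Zm00001d005973 lies at 0.65 and 1.14, Zm00001d047235 at 0.64 and -0.10, and the called genes Zm00001d022374 and Zm00001d049055 at 2.59 and 2.21 in subsidiary cells.

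Among the 3 genes of highest mean count on the list, Zm00001d007372 had 1564 ± 638 in guard cells and 1605 ± 706 in subsidiary cells by day (SD, n = 4 each; difference -0.02 ± 0.35, SE). Zm00001d002966 reached 15741 normalised counts in guard cell night replicate 4, a library that stood apart, against 86.2 to 726 in the other 15 libraries. Zm00001d005974, named here because its identifier follows that of Zm00001d005973, differed by 1.04 ± 0.51 by day (SE, guard minus subsidiary cells, limma adjusted p = 0.414). It had 328 ± 117 in guard cells and 169 ± 86.1 in subsidiary cells by day, and 215 ± 105 in guard cells and 204 ± 26.0 in subsidiary cells by night (SD, n = 4 each). The library kit keeps no strand, and whether reads were shared among similar carboxypeptidase genes was not tested.

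The genes most like each of the pair were sought by the root mean square difference of log2 values over the 16 libraries, each gene centred on its own mean. Zm00001d047235 itself varied by a root mean square of 1.87 about its mean. Its nearest genes were Zm00001d045063, described as Putative, at 0.64, and Zm00001d003035, Zm00001d022534, Zm00001d021711 and Zm00001d028141, which carry no description, at 0.67 to 0.68. Zm00001d022534, for example, had day means of 4142 ± 419 for guard cells and 327 ± 126 for subsidiary cells (SD, n = 4 each). Zm00001d005973 varied by 0.93, and its nearest genes were Zm00001d007032, Zm00001d028084 and Zm00001d020863 without a description (0.38 to 0.43), Zm00001d031937, described as Peptidyl-prolyl (0.46), and Zm00001d035949, described as Serine/threonine-protein (0.47). Zm00001d007032 had 1285 ± 574 by day and 930 ± 237 by night in guard cells, and 4864 ± 719 by day and 1871 ± 242 by night in subsidiary cells. Among the carboxypeptidase genes, the closest to Zm00001d047235 was Zm00001d015872 at 1.43, number 504 of the tested genes by likeness. The closest to Zm00001d005973 was Zm00001d040741 at 0.74, number 426 by likeness, a gene named after its values were seen.

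Other peptidases, 12 genes by the words of their descriptions, held 1 gene called by day between the cell types and 1 between day and night in guard cells. Over all tested genes 1.34% and 0.866% were called in these comparisons. Both calls are of the Metallopeptidase Zm00001d046952. It had 2482 ± 1421 normalised counts in guard cells and 317 ± 95.2 in subsidiary cells by day, and 199 ± 75.7 in guard cells and 164 ± 104 in subsidiary cells by night (SD, n = 4 each). Its difference between the cell types was 2.77 ± 0.57 (SE) by day (limma adjusted p = 0.0193) and 0.47 ± 0.57 by night (limma adjusted p = 0.889). Day minus night in guard cells was 3.47 ± 0.57 (limma adjusted p = 0.00408). Peptidase inhibitors, 8 genes, had 0 calls in any of the 4 comparisons in limma, edgeR or DESeq2 (with 1 gene at an unadjusted limma p under 0.05, between day and night in subsidiary cells). The 55 chlorophyll and photosystem genes had 2 calls by day, both higher in guard cells, and 0 by night between the cell types (limma, with 20 and 8 at an unadjusted p under 0.05, while DESeq2 called 6 and 3 and edgeR 0 at both times). Over all tested genes 0.943% were called higher in guard cells by day and 0.0185% by night. The 55 genes had median differences of 1.54 by day and -0.02 by night. Between day and night 13 of them were called in guard cells and 6 in subsidiary cells, all higher by day. Over all 37759 tested genes 282 were called higher by day in guard cells and 254 in subsidiary cells. Between the cell types Zm00001d047235 differed by 3.83 by day and 3.09 by night, and whether mesophyll RNA enters this difference was not tested. The 6 genes described as Carbonic or Phosphoenolpyruvate, words that fit enzymes of carbon fixation in maize mesophyll, were detected in every library. They took 0.0285 to 0.0481% of reads in guard cells and 0.00566 to 0.0269% in subsidiary cells by day, and 0.00751 to 0.0216% for guard cells and 0.0135 to 0.0186% for subsidiary cells by night. They had 0 calls between the cell types (limma, with 5 at an unadjusted p under 0.05 by day and 0 by night, while edgeR called 0 at both times and DESeq2 called 1 by day). Over all 37759 tested genes limma called 505 between the cell types by day and 11 by night. An unadjusted limma p under 0.05 was held by 4683 of these tested genes by day and 3237 by night. Between day and night in subsidiary cells 4242 of the tested genes had one.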

How the data were processed

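The authors deposited normalised counts (signal) of 38179 genes, which the values show to be gene counts over a size factor. In each library 100% of values were whole multiples of 1 step within 0.01 reads, and whole reads were recovered. The submitters' processing notes name DESeq2 1.40.2 and the B73 RefGen_v4 build. For aligner and counter, the sources used here give no name. B104 plants were set against a B73 build, so genes that differ between these lines may be undercounted. The authors' deposited log2 fold change (a score) and adjusted p-value columns run night over day within a cell type, and subsidiary over guard cells within a time. In 62 lines a description shifted columns, and these were moved back. SMART-Seq v4 libraries have no molecular identifiers, so counting error is a lower limit, per the labels' protocols on the kit.

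Titles of the subsidiary night samples carry a day-like word, and their treatment label says night. The main fit was limma-trend (R 4.3.3, limma 3.58.1) on log2(value + 1) with 4 group means over 16 libraries, for 37759 genes with at least 10 in at least 4 libraries. edgeR 4.0.16 and DESeq2 1.42.0 ran on recovered reads, and the code was tested on simulated data. Named carboxypeptidase genes were the pair, the called genes, the 2 of smallest p where a day to night test called 0, the extremes by day and the 3 of highest mean. A nearest set of 5 genes per member was added. The members and lists were chosen with earlier results of these data known. Replicates of a group come from 4 independent collections, and p-values measure the spread of libraries within groups, pooled over the 4 groups. Libraries of different groups may share a collection, and the main fit treated all 16 as independent. A transpeptidase was left out of the other peptidases after descriptions were read. Descriptions are single words, and 0 identifiers matched the reference table.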

Additional observations from a re-analysis of the deposited data

Results flagged for a closer look

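In 60 sets of 4 libraries (named carboxypeptidase genes and list totals by group), 7 held a library far from the other 3, where chance flags about 1 in 20. None of the 7 was in Zm00001d047235 or Zm00001d005973. Zm00001d002966 had 15741 normalised counts in guard cell night replicate 4, against 159 to 403 in the other 3. Zm00001d025195 had 1756 in subsidiary cell night replicate 3, against 4288 to 4731. Zm00001d049055 had 763 in subsidiary cell night replicate 1, against 453 to 504. Zm00001d022374 had 1668 in subsidiary cell day replicate 3, against 1008 to 1079. Zm00001d005974 had 243 in subsidiary cell night replicate 2, against 187 to 193. The 44 carboxypeptidase genes took 0.0835% of reads in guard cell day replicate 2, against 0.12 to 0.124%. The Carbonic and Phosphoenolpyruvate genes took 0.0481% in guard cell day replicate 1, against 0.0285 to 0.0293%.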

How the results depend on the processing

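The log2 differences of Zm00001d047235 and Zm00001d005973 between the cell types kept their sign under all 26 alternatives. These contrasts chose the genes, and their libraries did not overlap at either time. Leaving out 1 library therefore could not turn the sign, and nothing is read from its staying the same. The differences moved by less than the SD of a difference between 2 single libraries of a group, a limit wider than their SE. By day they ran from 3.58 to 4.10 and from -1.82 to -1.59, and by night from 2.87 to 3.55 and from -1.43 to -1.01. No day to night test of Zm00001d047235 passed under any alternative, and its subsidiary cell value ran from -0.38 to 0.28 with 1 library left out. For Zm00001d005973 in subsidiary cells day minus night was 1.07 in DESeq2 and 1.15 with quality weights, both past the threshold (adjusted p 0.0336 and 0.0355), and it missed it in the other 24 alternatives. The difference of the day to night changes cannot be had from a fit of only 2 groups.

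Over all genes, day against night in guard cells gave 327 calls in limma, 196 in edgeR, 1095 in DESeq2, 203 with only the groups compared and 182 to 383 with 1 library left out. In subsidiary cells it gave 461, 1334 in DESeq2, 959 with quality weights and 235 to 645 with 1 library left out. Between the cell types by day it gave 505, 1639 in DESeq2, 824 with quality weights, 762 without both libraries that stood apart and 234 to 815 with 1 left out. By night it gave 11, 28 with a pseudocount of 10, 2 in edgeR, 610 in DESeq2, 4 with only the groups compared, 185 with quality weights, 170 without both and 0 to 114 with 1 left out.

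Of the 44 carboxypeptidase genes, DESeq2 called 2 in guard cells and 4 in subsidiary cells between day and night, against 0 and 2 in limma. In subsidiary cells edgeR called 1 and leaving out 1 library 1 to 2. By night between the cell types, against 1 in limma, edgeR called 0, the 2-group fit 0, DESeq2 4, quality weights 2, the fit without both libraries 2, and leaving out 1 library 0 to 2. These night counts include the pair, which was chosen by its cell type values, so nothing is read from them for the pair. Of the other 42 genes limma and edgeR called 0 by night and DESeq2 called 2. Deviations of same-numbered libraries correlated at -0.0611 to 0.0794 across genes. This does not exclude that same-numbered libraries share a collection, and the main fit did not pair them. With a replicate block 1 was called in subsidiary cells between day and night and 0 by night between the cell types. The cause of these changes was not tested. Zm00001d047235 had 48 to 306 reads per subsidiary cell library, a counting error of at least 5.72 to 14.4%, beside a coefficient of variation between replicates of 50.2% by day and 64.6% by night.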
